A study of Mus musculus with 6 samples.

Results

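The interferon-gamma-induced GTPases examined here are 10 genes chosen by name as members of the guanylate-binding protein (GBP) and immunity-related GTPase (IRG) families, out of 47729 genes in the table: Gbp2, Gbp3, Gbp4, Gbp5, Gbp7, Gbp9, Irgm1, Irgm2, Igtp and Iigp1. All 10 were found by symbol and passed the filter on low counts. They were measured by RNA-seq in whole spleens of 3 females of NOD.B10, a mouse strain that develops primary Sjögren's syndrome (pSS), and 3 females of BL/10 (C57BL10/SnJ), the healthy control strain, to ask how the spleen in disease differs from that of control animals. No treatment is named in the labels. Total counts were 16476126, 16257041 and 17160323 in NOD.B10 replicates 1, 2 and 3, and 18298451, 15662712 and 17935130 in the BL/10 replicates.

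The labels disagreed about the libraries. The descriptions and the column names of the table give the strains used here, whereas the titles and strain fields give the opposite strain for each of the 6 libraries, so every direction below would reverse under the titles. The gene Ifi202b, which C57BL strains are known to lack or hardly express, had 838, 624 and 485 counts in the libraries taken as NOD.B10 and 2, 0 and 0 in those taken as BL/10. The other strain check, Klra8, an NK cell receptor gene known from C57BL strains, did not mark the libraries taken as BL/10, with counts of 60, 64 and 40 against 102, 80 and 89 for NOD.B10 (edgeR adjusted p = 0.0841), and its reads are uncertain among the Klra paralogs. By the labels, the 3 NOD.B10 mice and BL/10 replicate 1 were 26 weeks old and BL/10 replicates 2 and 3 were 36 weeks old, while the methods of the study describe age-matched mice, so strain and age overlapped in part. BL/10 replicate 1 also stood apart by pancreas RNA. The listed acinar genes held 1.51% of its counts, against 0.218% in BL/10 replicate 2, 0.0114% in BL/10 replicate 3 and 0.00238% to 0.00324% in NOD.B10. The spleen label itself was borne out by the B cell and red pulp macrophage genes (Ms4a1, Cd79a, Spic), which were present in every library.

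Interferon-gamma, made mainly by T cells and NK cells, binds a receptor that activates the kinases JAK1 and JAK2. The signal acts on target genes through GAS elements in their promoters and through IRF1, itself induced, which binds interferon-stimulated response elements (ISRE). Among the most strongly induced genes in macrophages and many other cells are the GBPs and IRGs, GTPases that settle on vacuoles holding intracellular microbes, break them open, and expose bacterial products to inflammasomes. Within the IRGs, Irgm1, Irgm2 and Igtp (Irgm3) encode regulators that guard the membranes of the cell itself, and Iigp1 (Irga6) encodes an effector that they hold inactive.

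The members lie in clusters of mouse build GRCm38. On the plus strand of chromosome 3, Gbp5 (142493978 to 142522344), Gbp7 (142530342 to 142550149), Gbp3 (142560026 to 142573209) and Gbp2 (142620602 to 142638008) follow each other, with Gbp2b, a paralog outside the 10, between Gbp3 and Gbp2. Gbp9 (105077630 to 105139539) and Gbp4 (105115767 to 105139586) overlap on the minus strand of chromosome 5. Igtp (58199556 to 58207591) and Irgm2 (58199618 to 58222782) overlap on the plus strand of chromosome 11, where Irgm1 (48861968 to 48871683) lies on the minus strand. Exons shared 60 bases between Gbp4 and Gbp9 and 162 bases between Igtp and Irgm2. Reads on shared bases are not assigned by the counting used, and reads that paralogs share are uncertain for every member.

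RefSeq promoters (build GRCm38.p6, 250 bases before the start) were given for 7 of the 10 members, and all 7 held an ISRE, searched on both strands as GAAA, any 2 bases (NN) and GAAA, or in reverse complement as TTTC, NN and TTTC. By comparison, 978 of 32851 promoters of that length, or 2.98%, held these letters. The GAS letters TTCNNNGAA, which read the same on both strands, were in 4 members (Gbp5, Gbp7, Irgm2 and Igtp) and in 7.02% of all promoters. A match is a description of letters and not a site shown to be bound. The windows around the ISRE are shown because these 7 members share its letters. Among them are Gbp2 and Irgm2, the members that rose most, and Gbp3 and Irgm1, which did not pass the test. Gbp2b and the paralogs Tgtp1 and Tgtp2, described with the family below, are shown for comparison. Capitals mark the ISRE and, where it lies in the window, the GAS letters, and each sequence is written on the strand of its gene.
Gbp2, chr3:142620584-142620633, plus strand: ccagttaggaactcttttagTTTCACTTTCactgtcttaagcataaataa
Gbp3, chr3:142559979-142560034, plus strand: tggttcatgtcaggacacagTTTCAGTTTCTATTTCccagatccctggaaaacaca
Gbp5, chr3:142496749-142496798, plus strand: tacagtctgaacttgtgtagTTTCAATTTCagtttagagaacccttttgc
Gbp7, chr3:142530263-142530312, plus strand: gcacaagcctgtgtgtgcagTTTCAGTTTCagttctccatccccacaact
Irgm1, chr11:48871421-48871470, minus strand: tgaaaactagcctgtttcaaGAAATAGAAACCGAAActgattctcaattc
Irgm2, chr11:58214893-58214942, plus strand: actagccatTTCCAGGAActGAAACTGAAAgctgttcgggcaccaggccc
Igtp, chr11:58199502-58199551, plus strand: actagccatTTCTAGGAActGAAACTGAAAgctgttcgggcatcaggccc
Gbp2b, chr3:142594690-142594739, plus strand: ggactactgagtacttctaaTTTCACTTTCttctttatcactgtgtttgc
Tgtp1, chr11:48992294-48992343, minus strand: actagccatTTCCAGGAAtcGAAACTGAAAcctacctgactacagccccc
Tgtp2, chr11:49064253-49064302, minus strand: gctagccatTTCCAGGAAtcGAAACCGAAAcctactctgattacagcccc
The Irgm2 and Igtp windows were identical at 48 of 50 bases, and their whole promoters were 68.1% identical when aligned. In Gbp3 and Irgm1 a pair of ISRE matches overlapped, and a further RefSeq promoter of Gbp3 held none. Among the 7 members, both those that differed between the strains and those that did not pass the test held the ISRE letters. Of 7 other GBP and IRG genes with a promoter given, 4 held the ISRE letters (Gbp2b, Tgtp1, Tgtp2 and Gm12250), and Ifi47, Irgq and Gm5431 did not.

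Of the 10 members, 6 were higher in NOD.B10 (Gbp2, Gbp4, Gbp5, Gbp7, Irgm2 and Igtp) and 0 were lower at an adjusted p under 0.05, from edgeR's quasi-likelihood test over the 15330 genes tested. Among all genes tested, 17.3% passed the test, 9.11% being higher and 8.22% lower in NOD.B10. The differences of the 6 were moderate, with means 1.42 to 1.95 times those of BL/10. The median log2 fold change of the 10 members was 0.56, against 0.00 over all genes tested, whose middle 50% lay between -0.25 and 0.23. The libraries of the strains did not overlap for these same 6 genes, and in the other 4 they did. Over all genes tested, the libraries did not overlap in 38.0%, with every NOD.B10 library above every BL/10 library in 20.5% and below in 17.5%. DESeq2 also called 6 of the members, where it called 17.4% of the genes it gave an adjusted p. As the RNA came from whole spleen, more cells of a type and more RNA per cell cannot be told apart, and the p-values measure the spread among these mice.

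**Figure D1:**
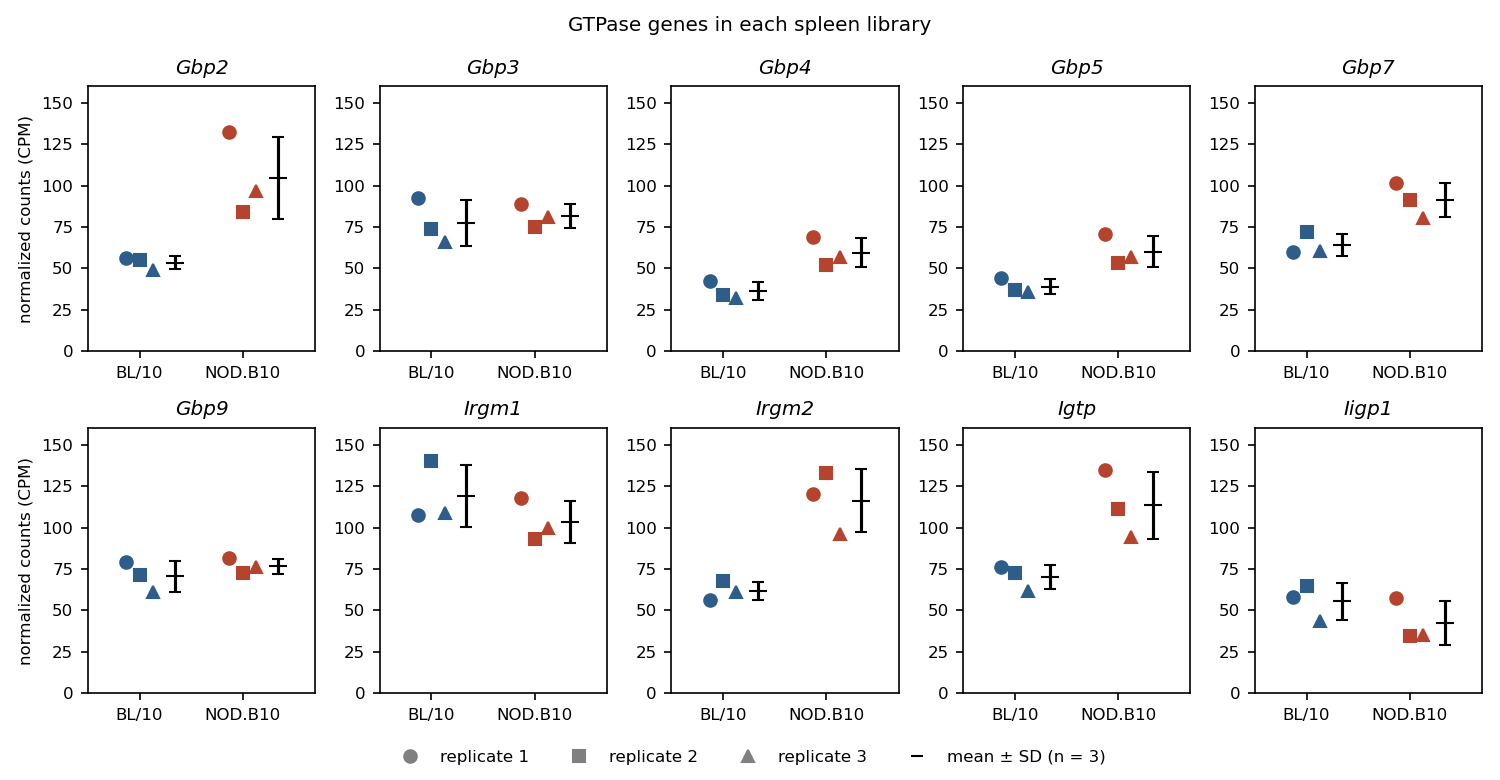
Normalized counts (CPM, y axis) of each of the 10 GTPase genes in the 3 BL/10 and 3 NOD.B10 libraries (x axis), with 1 symbol for each replicate and the mean ± SD (n = 3) as a black bar. In 6 panels all NOD.B10 points lie above all BL/10 points, and in the panels of Gbp3, Gbp9, Irgm1 and Iigp1 the strains overlap.

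Among the GBPs of the 10 members, Gbp2, which targets pathogen vacuoles and helps the AIM2 and caspase-11 inflammasomes, differed most. Its level was 132, 84.1 and 97.0 CPM in NOD.B10 replicates 1, 2 and 3, and 56.3, 55.1 and 49.3 CPM in the BL/10 replicates (CPM, counts scaled by library size after TMM normalization). The lowest NOD.B10 library was well above the highest BL/10 library, and the spread was wider in NOD.B10 (104.4 ± 24.8 CPM, SD, n = 3) than in BL/10 (53.6 ± 3.76 CPM). The log2 fold change was 0.96 with a standard error (SE) of 0.16 (edgeR adjusted p = 0.0076).

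Gbp4 and Gbp5 rose by similar amounts and from similar levels. Gbp4 was at 69.1, 52.1 and 57.03 CPM in NOD.B10 and at 42.7, 34.3 and 32.1 CPM in BL/10, a log2 fold change of 0.71 (SE 0.15, edgeR adjusted p = 0.0158). Gbp5, which is known to promote NLRP3 inflammasome assembly, was at 70.5, 53.1 and 57.1 CPM in NOD.B10 and at 44.3, 37.0 and 35.9 CPM in BL/10, a log2 fold change of 0.62 (SE 0.13, edgeR adjusted p = 0.0187). In both genes replicate 1 was the highest library of its strain, and the groups did not overlap.

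Gbp7, a further GBP of the chromosome 3 cluster known for roles in oxidative and autophagic defence, showed the smallest difference that passed. Its level was 101.3, 91.4 and 80.6 CPM in NOD.B10 and 60.2, 71.9 and 60.5 CPM in BL/10, with a log2 fold change of 0.50 (SE 0.12, edgeR adjusted p = 0.0240). The gap between the lowest NOD.B10 and the highest BL/10 library was narrow here, and 637 bases of its exons are shared with the annotated gene Gm43802.

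Gbp3 and Gbp9 did not pass the test. Gbp3, between Gbp7 and Gbp2b on chromosome 3, was at 89.0, 74.7 and 81.0 CPM in NOD.B10 and 92.4, 73.9 and 65.7 CPM in BL/10, so that its highest library was a BL/10 one. The log2 fold change was 0.08 with a 95% confidence interval from -0.24 to 0.39 (edgeR adjusted p = 0.729). Gbp9 was at 81.3, 72.6 and 76.0 CPM in NOD.B10 and 79.5, 71.2 and 61.1 CPM in BL/10, and its interval ran from -0.14 to 0.38 around a log2 fold change of 0.12 (edgeR adjusted p = 0.488). The intervals of both genes excluded a difference as large as the estimate for Gbp2, and Gbp9 overlaps Gbp4, which rose.

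Of the regulatory IRGs, Irgm2 and Igtp rose in NOD.B10 and Irgm1 did not pass the test. Irgm2 was at 120.0, 132.9 and 95.8 CPM in NOD.B10 and at 56.3, 67.5 and 61.2 CPM in BL/10, and its log2 fold change of 0.91 (SE 0.14, edgeR adjusted p = 0.00412) had the smallest adjusted p of the 10. NOD.B10 replicate 2 was the highest library here, where replicate 1 was the highest of its strain for the other members. Igtp, its neighbour, was at 134.4, 111.2 and 94.3 CPM in NOD.B10 and at 76.0, 72.8 and 61.7 CPM in BL/10, a log2 fold change of 0.69 (SE 0.14, edgeR adjusted p = 0.0167).

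Irgm1, which is needed for mouse resistance to mycobacteria and for the survival of lymphocytes and blood stem cells under interferon-gamma, was by contrast at 117.7, 93.0 and 99.7 CPM in NOD.B10 and at 107.5, 140.4 and 108.9 CPM in BL/10. The groups overlapped, the highest value belonged to BL/10 replicate 2, and the log2 fold change was -0.20 (95% confidence interval -0.52 to 0.12, edgeR adjusted p = 0.341). The effector Iigp1, which coats the vacuole of Toxoplasma, was at 57.7, 34.7 and 35.2 CPM in NOD.B10 and 58.1, 64.9 and 43.4 CPM in BL/10. NOD.B10 replicate 1 reached the level of BL/10 replicate 1, whereas the other NOD.B10 libraries were below every BL/10 library, and the log2 fold change was -0.38 (95% confidence interval -0.91 to 0.15, edgeR adjusted p = 0.274).

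Compared per kilobase of exon, Igtp had the highest level of the members in both strains, at 56.0 ± 9.96 CPM per kilobase in NOD.B10 and 34.7 ± 3.70 in BL/10 (SD, n = 3). Gbp4 had the lowest, at 7.93 ± 1.17 in NOD.B10 and 4.85 ± 0.75 in BL/10. In NOD.B10 the order of levels per kilobase was Igtp, Gbp2, Irgm2, Gbp3, Irgm1, Gbp7, Gbp9, Iigp1, Gbp5 and Gbp4, and among neighbours in that order the means ± SD were apart only for Gbp3 and Irgm1. In BL/10 the order was Igtp, Gbp3, Gbp2, Irgm1, Iigp1, Irgm2, Gbp9, Gbp7, Gbp5 and Gbp4, and neighbours were apart only for Igtp and Gbp3 and for Gbp7 and Gbp5. Gbp2 and Irgm2 thus stood at 41.5 and 31.5 CPM per kilobase in NOD.B10, above Gbp3 (24.98) and Irgm1 (17.8), whereas in BL/10 they stood at 21.3 and 16.7, below Gbp3 (23.7) with Irgm1 at 20.5.

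Within NOD.B10, replicate 1 was the highest library for 9 of the 10 genes, where it was the highest for 30.8% of all genes tested. Within BL/10 the members were divided. Replicate 1 was the highest for 6 and the lowest for 3 of the 10, replicate 2 was the highest for the other 4, and replicate 3 was the lowest for 7, against 31.2% of all genes tested. Summed over the 10 genes, the levels were 973.1, 799.7 and 773.7 CPM in NOD.B10 replicates 1, 2 and 3 and 673.2, 688.9 and 579.8 CPM in the BL/10 replicates. Iigp1, which did not follow the strain difference, nevertheless followed the mean pattern of the members within strains (Pearson r = 0.983 over 6 libraries after the strain means were taken out). Irgm2, which differed clearly between strains, followed it least within strains (r = 0.184). These correlations are descriptions over 6 libraries, and each member forms part of the mean it was compared with.

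**Figure D2:**
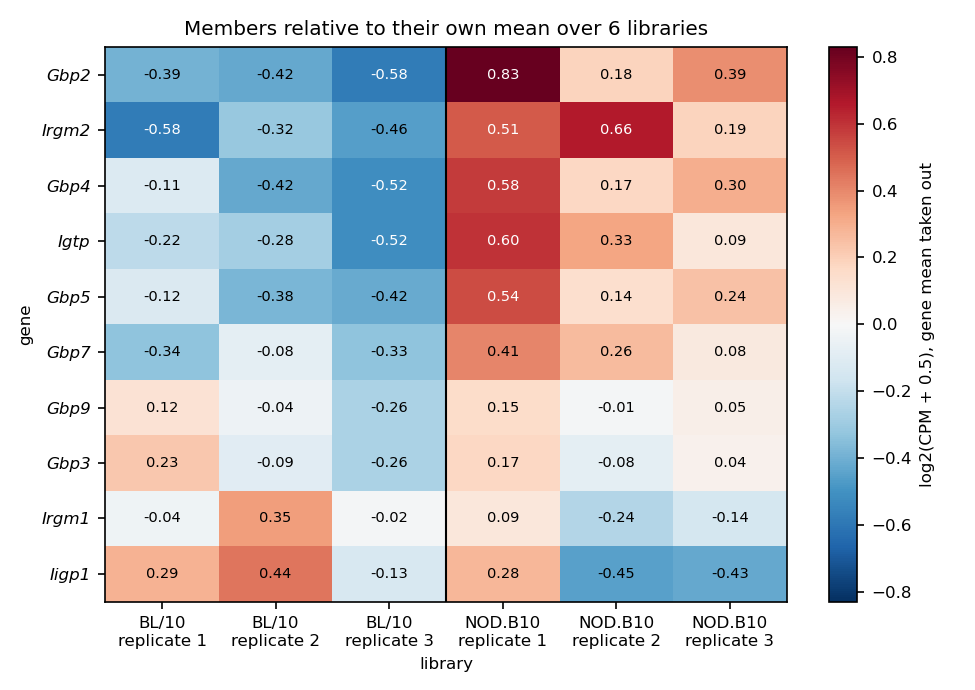
Each cell gives log2(CPM + 0.5) of 1 gene (y axis, ordered by log2 fold change) in 1 library (x axis), less the mean of that gene over the 6 libraries, on a colour scale from blue (low) to red (high). The upper 6 genes are positive in all NOD.B10 libraries and negative in all BL/10 libraries, from 0.83 for Gbp2 in NOD.B10 replicate 1 to -0.58, and the lower 4 genes are mixed.

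The call depended on single mice for 4 of the 6 members that passed. Gbp2 and Irgm2 stayed under the threshold when any 1 of the 6 libraries was left out, with adjusted p of at most 0.0338 and 0.0237 from edgeR. Gbp4, Gbp5 and Gbp7 did so in 3 of the 6 cases each and Igtp in 4. Without NOD.B10 replicate 1, or without BL/10 replicate 3, 2 of the members passed, and without BL/10 replicate 2, 4 passed. Leaving out BL/10 replicate 1, the library with the most pancreas RNA, left 6. With age as a covariate, which compares NOD.B10 with BL/10 replicate 1 alone at 26 weeks, only Irgm2 passed (log2 fold change 1.05, edgeR adjusted p = 0.0223). The log2 fold change of the 6 genes stayed positive in all 16 alternative analyses. The analysis at an adjusted p under 0.01 reuses the main fit. As the strains did not overlap in these genes, leaving out 1 library could hardly turn the sign.

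The rest of the GBP and IRG genes were more divided. Of 22 symbols searched, some of them other names of the same genes, 15 were matched and all 15 were tested. Of these 5 rose, 2 fell and 8 did not pass, where 17.3% of all genes tested were called. The log2 fold changes of the 15 had a median of 0.39. Under the fit with age as a covariate, 3 were called. Gbp2b (Gbp1), which lies between Gbp3 and Gbp2 at 142594847 to 142619179 on chromosome 3, differed far more than any of the 10 members. Its counts were 1223, 701 and 650 for NOD.B10 (73.2, 43.1 and 36.5 CPM) and 24, 35 and 19 for BL/10 (1.30, 2.35 and 1.08 CPM). The mean in NOD.B10 was 32.3 times that in BL/10, and the log2 fold change was 5.03 (SE 0.37, edgeR adjusted p = 0.000181). NOD.B10 replicate 1 was again the highest. Its immediate neighbours on the chromosome were Gbp3, which did not pass, and Gbp2, which rose by far less.

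Tgtp2 and Tgtp1, close relatives of each other on chromosome 11, went in opposite directions. Tgtp2 (Irgb6), a T cell GTPase that also acts on vacuoles, was at 19.5, 12.6 and 13.5 CPM in NOD.B10 and at 5.87, 8.05 and 4.77 CPM in BL/10, a log2 fold change of 1.29 (SE 0.24, edgeR adjusted p = 0.0104). Tgtp1 was at 5.38, 4.12 and 4.10 CPM in NOD.B10 and at 7.60, 10.5 and 6.25 CPM in BL/10, a log2 fold change of -0.84 (SE 0.23, edgeR adjusted p = 0.0424). Neither pair of groups overlapped, the Tgtp1 call was lost in 6 of the 16 alternatives, and how reads are split between these paralogs is uncertain. Ifi47 (Irgd), at 106.3 ± 9.68 against 73.2 ± 10.2 CPM, rose by 0.54 on the log2 scale (edgeR adjusted p = 0.0246). Ifi47 passed in 12 and Tgtp2 in 14 of the 16 alternatives, and neither passed with age as a covariate.

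Outside the interferon-inducible IRGs, Irgc1, better known from testis, was at 6.72 ± 1.34 CPM in NOD.B10 and 1.53 ± 0.35 CPM in BL/10 (log2 fold change 2.12, edgeR adjusted p = 0.00132). Irgq was at 40.9 ± 2.89 against 31.2 ± 3.43 CPM (log2 fold change 0.39, edgeR adjusted p = 0.0461), a call lost in 10 of the 16 alternatives. Gm4951, a further IRG gene, was lower in NOD.B10, at 3.65, 2.83 and 3.32 CPM against 14.2, 14.3 and 10.6 CPM (log2 fold change -1.99, SE 0.18, edgeR adjusted p = 0.000433). Gbp6, Gbp8, Gbp10, Gbp11, Gm12250, F830016B08Rik, Gm4841 and Gm5431 did not pass, with log2 fold changes from -0.46 to 1.08. Except for Gbp8 (35.7 and 36.6 CPM) and Gm12250 (19.6 and 18.2 CPM), these were at or below 5 CPM in both strains. Differences of this size are hard to resolve there. The strains did not overlap for Gbp11 and Gm4841, higher in NOD.B10 (edgeR adjusted p = 0.113 and 0.0613). Nor did they for Gm5431, which was lower (edgeR adjusted p = 0.134). Over all genes tested, the libraries did not overlap in 38.0%.

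**Figure D3:**
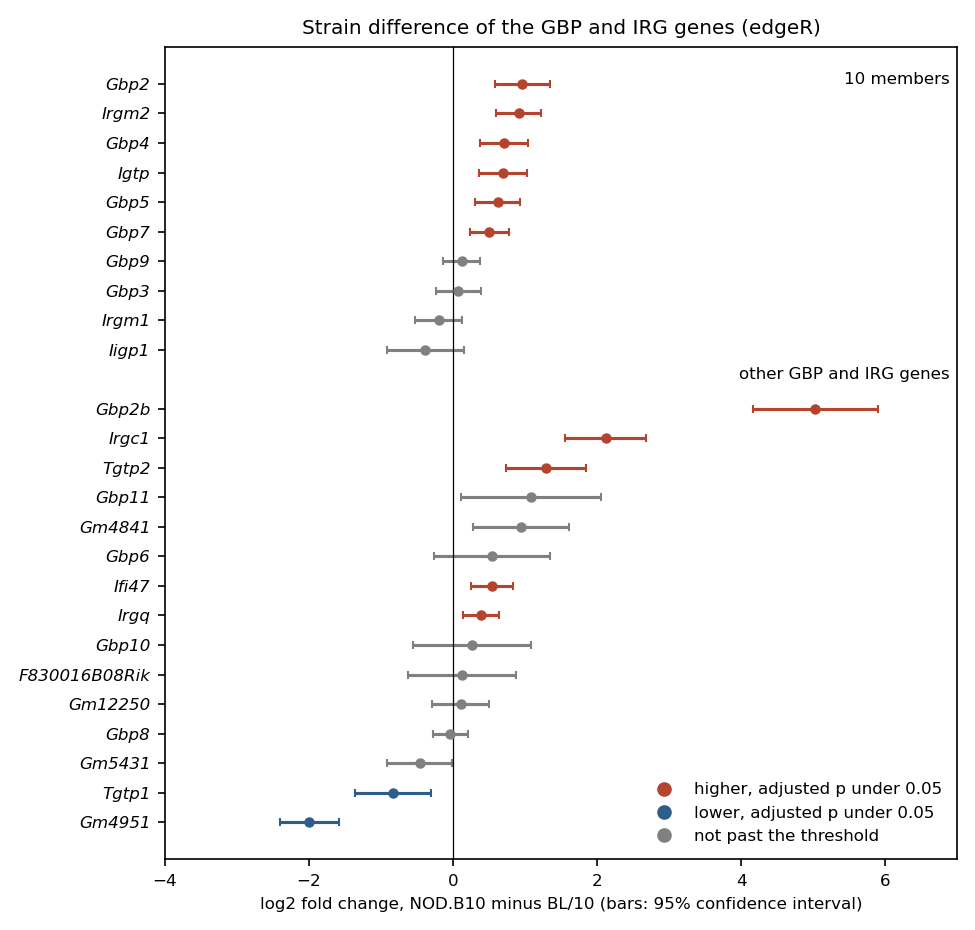
Log2 fold change of NOD.B10 over BL/10 (x axis) with its 95% confidence interval for the 10 members and the 15 other GBP and IRG genes (y axis), in red where higher, blue where lower and grey where not past an adjusted p of 0.05 in edgeR. The called members lie between 0.50 and 0.96, Gbp2b lies apart at 5.03, and Tgtp1 and Gm4951 lie below 0.

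The ligand and receptor of the pathway did not pass the test. Ifng itself had few reads in whole spleen, with counts of 36, 14 and 19 for NOD.B10 against 24, 11 and 14 for BL/10, above the floor of 3 counts (0.163 to 0.201 CPM) used here for counting error alone. Its groups overlapped (log2 fold change 0.51, SE 0.41, edgeR adjusted p = 0.422), and replicate 1 was the highest library of each strain. Ifngr1 and Ifngr2, the receptor chains, had log2 fold changes of 0.27 and -0.03, and the kinases Jak1 and Jak2 of 0.30 and 0.04. For Ifngr1 and Jak1 every NOD.B10 library was above every BL/10 library, although neither passed in edgeR (adjusted p = 0.137 and 0.0937). Jak1 was called by DESeq2 (adjusted p = 0.0381).

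Further down the pathway, Irf1, whose protein binds the ISRE, was at 164.4, 133.1 and 141.4 CPM in NOD.B10 and at 117.9, 109.7 and 99.4 CPM in BL/10. All NOD.B10 libraries were above all BL/10 libraries (log2 fold change 0.42, SE 0.11, edgeR adjusted p = 0.0390), although without single libraries Irf1 passed in only 2 of 6 cases. Irf9, a part of the complex that type I interferon uses, was lower in NOD.B10, at 102.5 ± 8.04 against 137.9 ± 16.7 CPM (log2 fold change -0.43, edgeR adjusted p = 0.0405), a call kept in 8 of the 16 alternatives and in 1 of 6 cases without a single library. Socs3, a feedback inhibitor of cytokine receptors and mainly of those that use STAT3, was at 49.5, 45.8 and 37.8 CPM in NOD.B10 and at 23.8, 22.6 and 19.95 CPM in BL/10 (log2 fold change 1.00, SE 0.13, edgeR adjusted p = 0.00208). Socs1, the main inhibitor of the interferon-gamma receptor, had a log2 fold change of 0.23 that did not pass (edgeR adjusted p = 0.325).

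All 27 genes listed for interferon-gamma and its signaling were tested. In NOD.B10, 5 were higher (Socs3, Il12rb2, Stat4, Stat3 and Irf1) and 2 lower (Il12b and Irf9), where 17.3% of all genes tested were called. The median log2 fold change of the 27 was 0.14. DESeq2 called 8 of the 27, and edgeR with age as a covariate called 2. Il12rb2 and Stat4 form the arm by which IL-12 drives T cells and NK cells to make interferon-gamma, and their log2 fold changes were 0.81 (edgeR adjusted p = 0.0128) and 0.74 (edgeR adjusted p = 0.0263). Without single libraries, Il12rb2 passed in 5 and Stat4 in 2 of 6 cases. Stat3, a factor of IL-6 family cytokines among others, had a log2 fold change of 0.50 (edgeR adjusted p = 0.0214) and also passed in 2 of 6. Il12b, which encodes the p40 chain of IL-12 and IL-23, went the other way, at 1.20, 0.860 and 0.618 CPM in NOD.B10 and 6.52, 6.17 and 4.49 CPM in BL/10 (log2 fold change -2.68, SE 0.28, edgeR adjusted p = 0.000925). The strains were far apart for Il12b in every library. Irf2, Irf8, Stat2, Ptpn11, Pias1, Pias4, Il12rb1, Il12a, Il18, Il18bp, Il18r1, Il18rap and Tbx21 did not pass, with log2 fold changes between -0.49 and 0.39.

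Of 30 other listed targets of interferon-gamma, 27 were tested. In edgeR 2 rose and 2 fell in NOD.B10 (7 were called by DESeq2), a share near the 17.3% called among all genes, and the median log2 fold change was 0.10. With age as a covariate, 0 passed in edgeR. The higher ones were Cd274, which encodes the checkpoint ligand PD-L1 (0.37, edgeR adjusted p = 0.0482), and Vcam1, an adhesion molecule and the most abundant gene of the list (0.39, edgeR adjusted p = 0.0492). Both were close to the threshold, and Cd274 passed in 7 and Vcam1 in 4 of the 16 alternatives. Without single libraries, Cd274 passed in 2 and Vcam1 in 0 of 6 cases. The lower ones were Fcgr1, the high-affinity IgG receptor (-1.16, edgeR adjusted p = 0.0151), and the chemokine Ccl5 (-0.55, edgeR adjusted p = 0.0209). Each of these passed in 12 of the 16 alternatives and in 4 of 6 cases without a single library. The chemokine Cxcl9 was at 144, 79.7 and 66.6 CPM in NOD.B10 and at 58.2, 61.2 and 36.9 CPM in BL/10, without overlap but with a wide spread (log2 fold change 0.89, SE 0.31, edgeR adjusted p = 0.0838). Cxcl9 passed in 3 of the 16 alternatives, DESeq2 among them, and in 0 of 6 cases without a single library.

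The type I interferon targets that passed the test were all lower in NOD.B10, where the members that passed were higher. Of 30 genes tested, 0 were higher in NOD.B10 and 16 were lower, where 8.22% of all genes tested were lower. The median log2 fold change was -0.85, and 14 did not pass, among them the most abundant, Rsad2. With age as a covariate 6 were called, and with single libraries left out 9 to 20. Summed over the list, type I targets were at 1521, 1404 and 1333 CPM in NOD.B10 and 1666, 2971 and 2568 CPM in BL/10. Neutrophil marker sums, given below, were likewise lowest in NOD.B10 and higher in BL/10 replicates 2 and 3 than in BL/10 replicate 1, and their part in this difference was not tested. Isg15, a ubiquitin-like modifier, was at 57, 46.5 and 38.6 CPM in NOD.B10 and at 79.8, 234.0 and 213.0 CPM in BL/10 (log2 fold change -1.89, SE 0.37, edgeR adjusted p = 0.0137). The Isg15 call was lost with age as a covariate, at an adjusted p under 0.01 and without NOD.B10 replicate 3. Its smallest log2 fold change among the alternatives was -0.75. Oas3, a sensor of double-stranded RNA, was at 19.9, 13.9 and 14.2 CPM in NOD.B10 and at 38.2, 106.9 and 75.4 CPM in BL/10 (log2 fold change -2.20, SE 0.35, edgeR adjusted p = 0.00595). In both genes BL/10 replicate 1, of 26 weeks, lay between the NOD.B10 libraries and the BL/10 libraries of 36 weeks. Oas1a and Oasl1, of the same family as Oas3, were also lower, by log2 fold changes of -1.71 and -1.60 (edgeR adjusted p = 0.000964 and 0.00154).

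**Figure D4:**
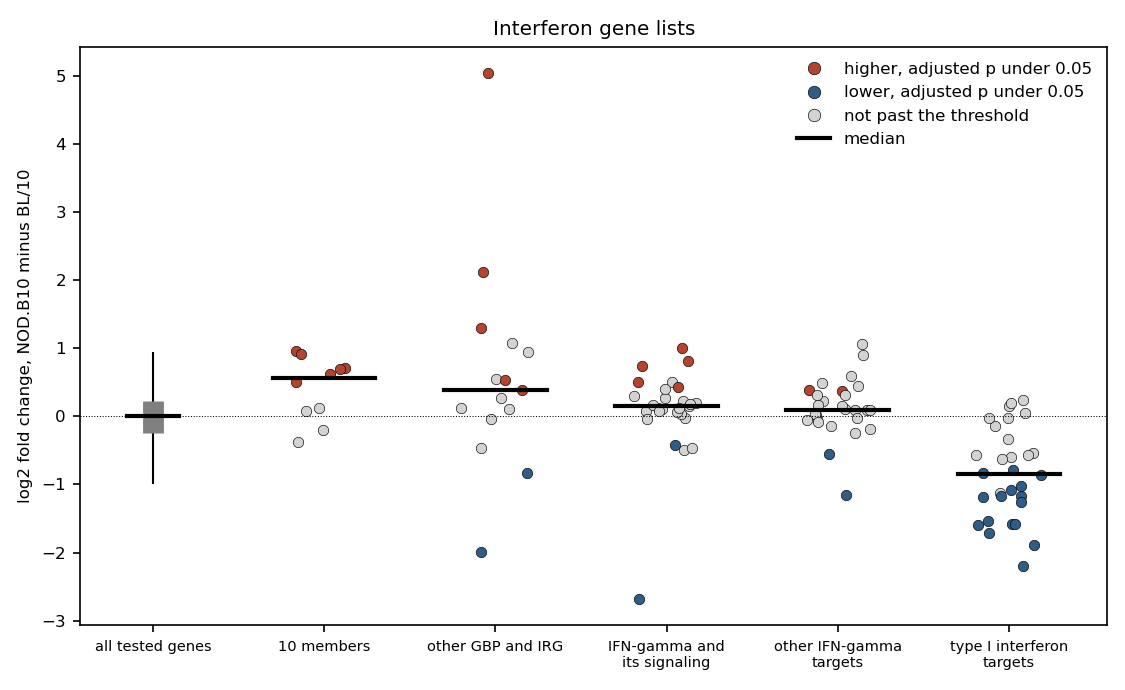
Log2 fold change of NOD.B10 over BL/10 (y axis) for each tested gene of 5 lists (x axis), with the median of a list as a black line, beside the 5th to 95th (line) and 25th to 75th (bar) percentiles of all genes tested. The medians are 0.56 for the members, 0.39 for other GBP and IRG genes, 0.14 for interferon-gamma signaling, 0.10 for its other targets and -0.85 for type I interferon targets.

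The smaller medians moved with single libraries. Leaving out 1 library gave medians of 0.46 to 0.63 for the members, 0.25 to 0.47 for other GBP and IRG genes, 0.07 to 0.19 for interferon-gamma signaling, 0.02 to 0.16 for its other targets and -0.94 to -0.72 for type I targets. The lowest came without NOD.B10 replicate 1 for the members, signaling and other targets, and without BL/10 replicate 3 for other GBP and IRG genes. With age as a covariate the medians were 0.46, 0.19, 0.10, -0.02 and -0.49.

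The genes whose pattern over the 6 libraries was most like the mean of the members, among protein-coding genes outside the 10, were Osbpl2 (Pearson r = 0.997), Txndc15 (0.994), Mplkip (0.985), Cdh22 (0.983), Mef2a (0.982) and Cxcl9 (0.980). After the strain means were taken out, they were Klrg1 (0.994), Osbpl2 (0.992), Cd160 (0.988), B9d2 (0.988), Cxcl9 (0.986) and Ly6c1 (0.985). Cxcl9 and Osbpl2 were in both sets. These are the extremes of 15330 genes compared over only 6 libraries of 2 strains, and they carry no test.

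Markers of several cell types moved with strain beside the members. For comparison, 9.11% of all genes tested were called higher and 8.22% lower in NOD.B10. T cell markers were higher in NOD.B10 for 12 of 14 genes, Cd3e being at 44.3 ± 5.60 against 16.5 ± 1.60 CPM and the most abundant, Cd4, at 207.2 ± 21.4 against 106.4 ± 23.6 CPM, whereas Cd8a and Cd8b1 did not pass (edgeR). Summed over the list they were at 1082, 988 and 1395 CPM in NOD.B10 and at 638.4, 567.7 and 514 CPM in BL/10. NOD.B10 replicate 3 had the highest sum of T cell markers. Plasma cell markers were higher for 6 of 9 genes (3356, 3861 and 3736 against 2706, 2425 and 2127 CPM, mostly Jchain).

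Neutrophil markers were lower in NOD.B10 for 11 of 12 genes, with sums of 2342, 2611 and 2271 CPM against 6369, 13300 and 11710 CPM, and S100a9 was the most abundant. Of 9 NK cell markers tested, 1 was higher (Ncr1) and 1 lower (Klrb1c), with sums of 140.3, 92.31 and 126 against 110.7, 122.9 and 95.07 CPM. Of 12 macrophage markers 1 was higher in edgeR (Cd163), while 4 had an unadjusted p under 0.05 and 4 were called by DESeq2. Of 10 dendritic cell markers 1 was higher, with 5 at an unadjusted p under 0.05 and 2 called by DESeq2, and of 10 B cell markers 0 passed in edgeR, with 1 at an unadjusted p under 0.05 and 1 in DESeq2. Macrophage markers, mostly Lyz2, summed to 8021, 7203 and 6592 CPM in NOD.B10 and to 6405, 6464 and 6430 CPM in BL/10. The sums of the B cell list, led by Ms4a1, were 4693, 4019 and 5196 against 5341, 3024 and 3293 CPM, and those of the dendritic cell list, led by Ccr7, were 411.1, 372.5 and 457.7 against 387.8, 366.2 and 359.6 CPM. No marker of these lists was at 0 in all 6 libraries. The part of these cell types in the difference of the members was not tested.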

How the data were processed

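The authors deposited raw read counts per gene, without normalization, which featureCounts 1.5.1 had made on exons of the Ensembl 84 annotation of GRCm38, per the file header, from single-end reads of 50 cycles. The counting command set no option for strand, multi-mapped reads or reads on several genes. The submitters' notes name HISAT2 2.0.5, and the methods of the study name Tophat2. How strain differences from the reference genome affect mapping was not tested. Samples were assigned to strains by description and column name, which for BL/10 replicate 3 match by library number and strain only. Symbols came from GENCODE M21 (47224 of 47729 identifiers).

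Counts were analysed with R 4.3.3, edgeR 4.0.16, limma 3.58.1 and DESeq2 1.42.0. Genes kept by filterByExpr (15330) were normalized by TMM and tested by edgeR's quasi-likelihood test with Benjamini-Hochberg adjustment. Standard errors were derived from the fold change and F statistic. On simulated data for this comparison (15156 genes run), 82 of 100 genes changed by log2 1 and 98 of 100 changed by log2 2 were found. In the same run, 13 unchanged genes were called. The simulation gave all genes a common dispersion and held no difference in age or pancreas RNA. It tried no change below log2 1, where the called members lie, so it does not give their rate of recovery. With 3 mice a strain, an exact permutation test of 1 gene cannot give a p below 0.1, so none was used.

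The members, the gene lists and the rule for named genes were chosen with earlier results of these data known. Named were all members, other GBP and IRG genes and interferon-gamma signaling genes (1 of which is not reported here), up to 4 called genes and the most abundant of each other list, the 6 most alike genes, and strain checks. Cd79a, Spic, Cd8a and Cd8b1 were named beside these. Mx1, Mx2, Casp1, Il18 and Zbp1 each stand in more than 1 list. Alternatives were DESeq2, RLE and upper-quartile scaling, leaving out hemoglobin, immunoglobulin and pancreas genes, other count filters, limma-voom, a replicate block, age as a covariate, an adjusted p under 0.01, and each library left out. Promoters of Gbp4, Gbp9 and Iigp1 and protein sequences were not analysed here.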

Additional observations from a re-analysis of the deposited data

How the results depend on the processing

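The members called stayed at 6 under DESeq2, RLE and upper-quartile scaling, both other filters, limma-voom and without hemoglobin, immunoglobulin and pancreas genes. With age as a covariate the calls were 943 for all genes (2656 without it), 1 for the members, 3 for other GBP and IRG genes, 2 for interferon-gamma signaling, 0 for other interferon-gamma targets and 6 for type I targets. The log2 fold changes were then 0.89 for Gbp2, 0.48 for Gbp4, 0.44 for Gbp5, 0.60 for Gbp7 and 0.58 for Igtp, all with an adjusted p above 0.05, and the sign turned for Gbp3 (-0.18) and Gbp9 (-0.0531), which were never called. At an adjusted p under 0.01 the calls were 1035 for all genes, 2 for the members (Gbp2 and Irgm2), 3, 2, 0 and 7 for the next 4 lists and 0 for the inflammasome list, with Gbp4 (0.71), Gbp5 (0.62), Gbp7 (0.50) and Igtp (0.69) not called. Other interferon-gamma targets had 7 calls with DESeq2 and 2 with at least 10 counts in every library, and the inflammasome list had 0 with upper-quartile scaling. With each library left out in turn, the calls ranged from 1269 (without NOD.B10 replicate 1) to 4107 (without BL/10 replicate 1) for all genes, 2 to 6 for the members, 4 to 7 for other GBP and IRG genes, 3 to 7 for interferon-gamma signaling, 0 to 5 for its other targets, 9 to 20 for type I targets, 0 to 3 for the ATG8 list and 0 to 1 for the inflammasome list, whose call was of a higher gene without NOD.B10 replicate 3 or BL/10 replicate 1 and in the replicate block. The log2 fold changes ranged from 0.59 to 0.83 for Gbp4, 0.50 to 0.71 for Gbp5, 0.42 to 0.59 for Gbp7, 0.55 to 0.81 for Igtp and -0.0366 (without BL/10 replicate 3) to 0.21 for Gbp3. The cause of these changes was not tested. Replicate numbers here only name the mice. After the strain means were taken out, same-numbered libraries had r = 0.0542, 0.251 and -0.0762, and differently numbered ones -0.238 to 0.194. Only the replicate 2 pair was above all differently numbered pairs. The deviations within a strain are tied to each other, so these values carry no test. A fit with the replicate number as a block called 2889 genes and 6 members, and changed no call of a member.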

Other observations

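Of the 7 genes matched in the list of large inducible and Mx GTPases, 1 was higher and 2 were lower in NOD.B10 by edgeR's quasi-likelihood test. This test called 17.3% of all genes tested. Gvin1, a very large inducible GTPase, had counts of 0, 0 and 0 for NOD.B10 against 40, 34 and 33 for BL/10, at least 11.9-fold lower against a floor of 3 counts per library. The related Gm8979 had counts of 119, 79 and 105 for NOD.B10 against 5, 5 and 5 for BL/10 (log2 fold change 4.30, adjusted p = 8.8e-05), while Gm8995, the most abundant of the list, was at 226.4 ± 27.4 and 204.7 ± 52.0 CPM and did not pass. The antiviral GTPase Mx1 was lower in NOD.B10, at 8.85, 5.96 and 9.22 CPM against 13.9, 16.6 and 13.6 CPM (log2 fold change -0.87, adjusted p = 0.0172). The Gvin genes are paralogs, so the split of reads among them is uncertain.

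Of 17 tested genes for ATG8 conjugation and vacuole targeting, which load GBPs and IRGs onto membranes, 0 passed in edgeR (1 at an unadjusted p under 0.05, and 0 in DESeq2), with log2 fold changes from -0.53 to 0.20 and a median of -0.08. Without BL/10 replicate 1, 3 were called, all lower in NOD.B10. Of 13 genes of the caspase-11 and AIM2 inflammasome list, 1 was lower in NOD.B10 (Nlrc4, -0.53, edgeR adjusted p = 0.0410). The log2 fold changes ran from -0.53 to 0.65 with a median of 0.10. Over all genes tested the share called was 17.3%. Of the 6 fits without a single library, only that without BL/10 replicate 2 had a lower gene of the list, and with upper-quartile scaling 0 were called. Without NOD.B10 replicate 3, without BL/10 replicate 1 and with the replicate block, 1 gene was higher and 0 were lower. Erythroid markers, of which 1 of 11 was lower in NOD.B10, summed to 41620, 48720 and 27200 CPM in NOD.B10 and 29850, 59240 and 67880 CPM in BL/10. Of 10 endothelial and stromal markers 3 were higher in NOD.B10, and of the 14 pancreas acinar genes tested all were lower.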
